A study of Mus musculus with 31 samples.

Results

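The early response of mouse masseter muscle (MM), a jaw-closing muscle, to complete Freund's adjuvant (CFA) was compared with its early response to 10U of collagenase type 2. Each response was the difference between injected mice and their vehicle mice. The comparison was the difference between both differences, called the interaction below. It used 13 of the 31 libraries of the series, chosen by their labels: 3 mice labelled 1 d post-CFA, 3 CFA vehicle controls, 4 mice labelled 2 d after 10U of collagenase and 3 collagenase vehicle controls. The labels give the early collagenase samples as day 2, and the study's text describes day 1 for both agents. Agent and labelled day therefore cannot be told apart. All were male C57BL/6J wild-type mice, 2 to 4 months old, injected into the left MM with CFA mixed with phosphate-buffered saline (PBS), with collagenase in PBS, or with PBS alone. The day on which vehicle mice were taken is not given in the sources used here. The collagenase vehicle mice are titled only Contr, and their titles do not state a shared batch with the 10U mice. Tissue held the superficial, middle and deep parts of the muscle with most tendon left out, so each library mixes fibres with immune, vascular and connective tissue cells. First, 149 genes were removed whose scaled level in all 11 libraries of 10U collagenase (all days) lay on 1 side of the other 20. Genes that did not reach 10 counts in 3 or more of the 13 libraries were left out as well. Both steps left 14659 genes tested of 22609 counted.

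CFA is an emulsion of oil and killed mycobacteria that engages pattern-recognition receptors and raises a lasting sterile inflammation. Collagenase type 2 cuts the collagen scaffold around fibres and vessels, so that the first events include mechanical loss of structure and fibre damage. In either case, resident macrophages, endothelium and fibres are known to secrete CXC chemokines, which attract neutrophils, and CC chemokines, which attract monocytes. Muscle fibres hold most of the transcripts for contraction, glycolysis and oxidative phosphorylation in this tissue, and myogenin (Myog) is switched on when muscle precursor cells differentiate or fibres lose their nerve supply.

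The 13 libraries held 15759560 to 29076671 counts assigned to genes (median 22527145). Reads that fell on more than 1 gene made up 0.675 to 0.875% of reads in the 11 libraries of 10U collagenase and 0.147 to 0.317% in the other 20, which include the collagenase vehicle mice. The 10U effect therefore compared libraries that differ in this share, and the CFA effect did not. Of the 149 genes that lay on 1 side, 83 of the 140 with a gene model (59.3%) overlapped exons of a gene on the opposite strand, against 3712 of 21517 (17.3%) of the other genes. The interaction with these genes kept is given in the closing section. The part of this counting difference in the results below was not tested, and genes with such an overlap are named as such.

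Markers of other tissues moved with the groups. The summed level of 12 sensory neuron markers was 3.31 to 6.72 CPM, the level of a gene scaled by the total count of its library, in the collagenase vehicle mice, 28.7 to 114 in the 10U mice, 21.4 to 59 in the CFA vehicle mice and 17.1 to 31.6 in the CFA mice, and 3 of the 12 were at 0 in all collagenase vehicle mice. The 12 retina markers summed to 11.3 to 33.6 CPM in the collagenase vehicle mice and to 1.47 to 4.24 CPM in the other 3 groups. The 17 epidermal markers, 5 of them at 0 in all CFA vehicle mice, summed to 94.6 to 234 CPM in the collagenase vehicle mice and to 37.1 to 152 CPM elsewhere. The part of these markers in the results below was not tested. The 16 salivary gland markers ranged from 51.1 to 77200 CPM over the 13 libraries, with low and high mice in each group. Bone markers summed to 79.6 to 1310 CPM and red cell markers to 1.23 to 234 CPM, both with lower mean log2 levels in CFA_control 1 and 2 and Contr 2 than in the other vehicle mice. Skeletal muscle markers, the tissue as labelled, were abundant in every library, at 102000 to 210000 CPM in the CFA vehicle mice, 109000 to 149000 in the CFA mice, 116000 to 172000 in the collagenase vehicle mice and 35200 to 73500 in the 10U mice. The last range lay below all the others, and fewer fibres and less RNA per fibre cannot be told apart in bulk tissue.

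**Figure D1:**
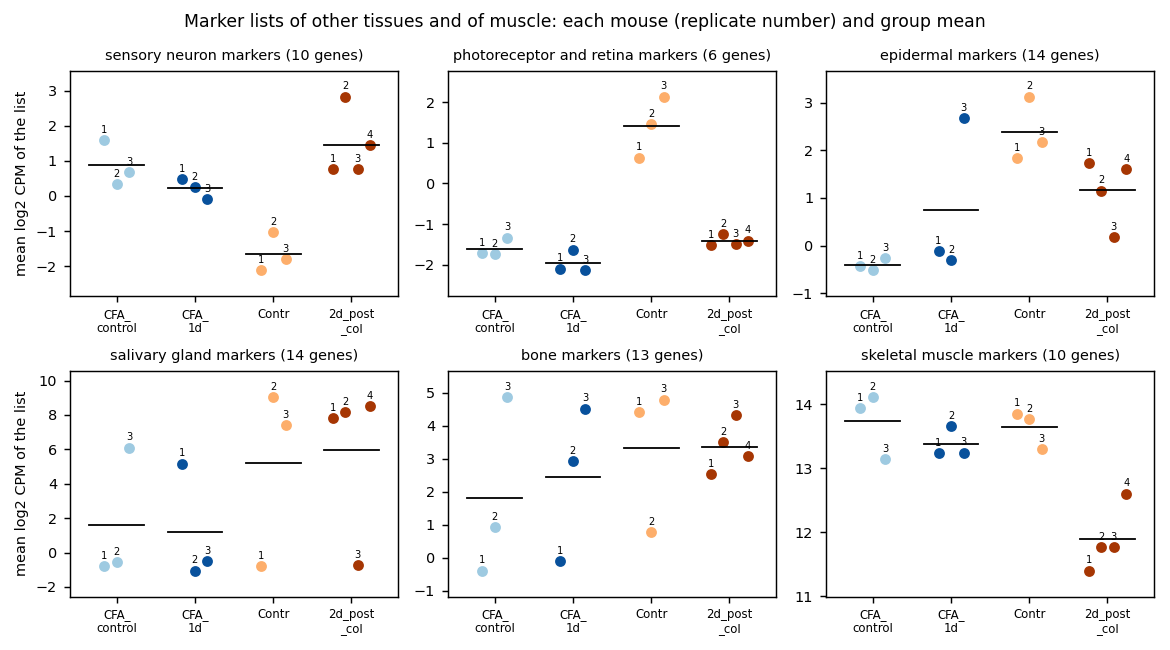
Mean log2 CPM over the tested genes of each of 6 marker lists, with 1 point per mouse marked by its replicate number and a line at the mean of each of the 4 groups. Among these groups, sensory neuron and retina markers set the collagenase vehicle mice (Contr) apart, and skeletal muscle markers are lowest in the 10U mice (2d_post_col).

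No gene passed the test of the interaction: 0 of 14659 had an adjusted p under 0.05 (edgeR quasi-likelihood test, Benjamini-Hochberg; 0% called), and the smallest adjusted p was 0.494. At an unadjusted p under 0.05, 440 genes (3%) had a more positive and 460 (3.14%) a more negative CFA than 10U effect, 6.14% in all. DESeq2 called 17 and 22 genes in these directions, and blocking on the replicate number called 1 and 2. For CFA alone edgeR called 0 genes (0%), with 541 higher (3.69%) and 127 lower (0.866%) at an unadjusted p under 0.05, and DESeq2 called 55 higher and 0 lower. For 10U alone edgeR called 831 higher (5.67%) and 936 lower (6.39%). Below, a gene that rose or fell with 10U is one called higher or lower by edgeR, not merely one with that sign. These 10U calls went to 0 and 0 when the mice 2d_post_col 1, 2 or 3 were left out 1 at a time, and to 2254 and 2482 without mouse 4. Without Contr 1 they were 0 and 4, without Contr 2 they were 6 and 4, and a fit of the 7 collagenase libraries alone called 0 in each direction, with 2436 higher and 2206 lower at an unadjusted p under 0.05.

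The interaction test therefore does not separate both effects gene by gene, and an adjusted p that misses the threshold does not show that the effects were alike. Mice within each injected group also differed widely. For several genes below, CFA mouse 2 or 10U mouse 4 lay nearer to the vehicle mice than the other injected mice did. In their direction, both effects had the same sign in 10777 genes (73.5%). Across all genes tested Pearson's r was 0.246 and Spearman's rho was 0.561, a description over genes that are not independent, from effects that share no mice. Of the 831 genes called higher with 10U, 728 (87.6%) had a CFA effect above 0, with a median of 1.33 for the 10U effect and 0.335 for the CFA effect on the log2 scale. Of the 936 called lower, 880 (94%) had a CFA effect below 0, with medians of -1.18 and -0.365.

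**Figure D2:**
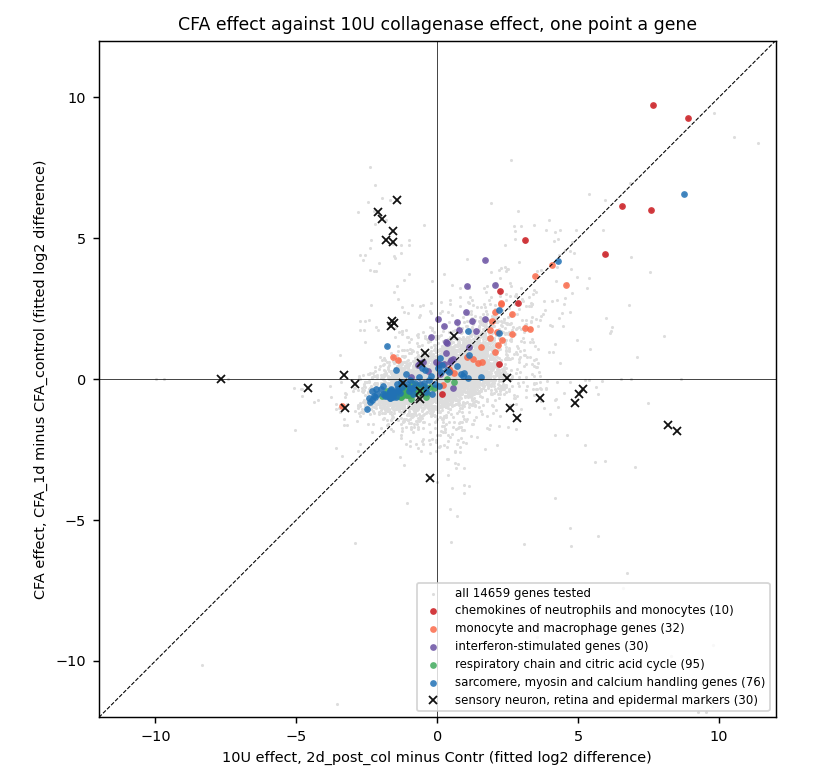
Each point is 1 of the 14659 tested genes, with the 10U effect on the x axis and the CFA effect on the y axis (fitted log2 differences), coloured by gene list, and 3 genes lie beyond the axes. Most of the chemokines sit high in both effects near the dashed line of equal effects. Most sarcomere and respiratory chain genes lie left of 0, further from it for 10U than for CFA.

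Among genes with an unadjusted p under 0.05 in each effect, more were higher in both responses than lower in both. This lean was not seen in 10U alone, with 2527 higher and 2571 lower. Over all genes with the same sign, 5284 (36%) had both effects above 0 and 5493 (37.5%) both below. With both unadjusted p under 0.05 in the same direction, 311 genes (2.12%) were higher and 52 (0.355%) lower in both effects. The 311 were 57.5% of the 541 genes higher with CFA and 12.3% of the 2527 higher with 10U at that threshold. The 52 were 40.9% of the 127 lower with CFA and 2.02% of the 2571 lower with 10U. These counts moved with single mice, to 95 and 12 without CFA_1d 1, 577 and 349 without CFA_1d 2, 212 and 22 without CFA_1d 3, 163 and 26 without CFA_control 1, 190 and 19 without CFA_control 2, 501 and 396 without CFA_control 3, 234 and 33 without Contr 2, 239 and 32 without 2d_post_col 2, and 539 and 160 without 2d_post_col 4. Injected and vehicle mice did not overlap for either agent in 124 genes higher in both (0.846%) and 64 lower in both (0.437%). In 17 genes (0.116%) they were apart in opposite directions. For CFA alone, groups did not overlap in 503 higher (3.43%) and 414 lower genes (2.82%), and for 10U alone in 1511 (10.3%) and 1862 (12.7%). None passed the test for a common effect at an adjusted p under 0.05 in edgeR (0%), in which the larger p of both effects counts. DESeq2 called 16 common genes, all higher, among them Ankrd1, Ankrd2, Ccl2, Ccl3, Ccl7, Clec4n, Cxcl2, Fcgr1, Ms4a6d, Mt2, Mustn1, Rrad, Saa3, Sbno2 and Socs3.

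Among the immune lists, the attractant chemokines had the highest medians in both effects. All 4 monocyte-attracting CC chemokines listed had both unadjusted p under 0.05, against 2.12% of all genes, with a list median of 4.67 log2 for CFA and 4.54 for 10U, against -0.0111 and 0.000321 over all genes, and 3 rose with 10U. Ccl7, which attracts monocytes through Ccr2, was at 27.3, 1.77 and 48.1 CPM in the 3 CFA mice and at 0.0812, 0.326 and 0.667 CPM in their vehicle mice. It was at 29.0, 26.6, 50.5 and 2.07 CPM in the 10U mice and at 0.317, 0.261 and 0.271 CPM in theirs. Each injected mouse lay above each of its vehicle mice, with CFA mouse 2 and 10U mouse 4 the lowest. Ccl7 was 69.8-fold higher with CFA (log2 6.13 ± 1.30, SE, adjusted p = 0.952 by edgeR) and rose 93.1-fold with 10U (log2 6.54 ± 1.34, adjusted p = 0.032). Its interaction was -0.42 log2, with a 95% interval of -4.06 to 3.23.

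Ccl2, the main monocyte attractant, was at 15.9, 1.27 and 33.6 CPM in CFA mice against 0.0812, 0.885 and 1.37 CPM in vehicle mice. In the 10U mice it was at 33.0, 29.0, 54.3 and 4.96 CPM against 0.724, 0.196 and 0.498 CPM. The CFA groups overlapped through mouse 2, and the 10U groups did not overlap. The fold was 21.5 with CFA and 61.5 with 10U, where Ccl2 rose (edgeR adjusted p = 0.032). Ccl12, a Ccl2-like monocyte attractant, showed the opposite order of effects, 4.92 ± 0.92 log2 with CFA and 3.13 ± 0.81 with 10U (adjusted p = 0.0373 by edgeR for 10U), at 3.97, 0.545 and 8.19 CPM in CFA mice and 4.73, 3.44, 3.37 and 1.09 CPM in 10U mice. Its interaction, 1.79 log2 with an interval of -0.66 to 4.25, includes 0. Ccl2, Ccl7 and Ccl12 lie on chromosome 11 of the mm9 build in an interval from 81849073, the start of Ccl2, to 81916902, the end of Ccl12.

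Of the list of neutrophil-attracting CXC chemokines, Cxcl2, Cxcl3 and Cxcl5 were near absent in vehicle mice. Pf4, on the same list, was at 3.86, 11.2 and 18.6 CPM in the CFA vehicle mice. In the collagenase vehicle mice Pf4 was at 14.5, 4.05 and 19.6 CPM. Cxcl2 had 0, 1 and 0 counts in the CFA vehicle mice and 2, 0 and 1 counts in the collagenase vehicle mice. CFA mice had 1003, 12 and 178 counts, or 40.2, 0.545 and 8.23 CPM. The 10U mice had 202, 201, 511 and 2 counts, or 10.6, 11, 22.7 and 0.0752 CPM. All CFA mice thus lay above their vehicle mice, and 10U mouse 4 lay within the range of its own, while Cxcl2 was called higher with 10U (edgeR adjusted p = 0.0369). Cxcl3 was at 0 counts in all CFA vehicle mice and at 7.69, 0.0454 and 2.50 CPM in CFA mice, at least 27.5-fold higher against a floor of 3 counts per library. Cxcl5 was at 9.05, 0.182 and 9.71 CPM in CFA mice against 0, 0.0466 and 0.222 CPM, so CFA mouse 2 lay within its vehicle range. It was at 10.3, 17.2, 27.1 and 0.489 CPM in 10U mice, all 4 above the 10U vehicle mice. The median of the 6 CXC chemokines was 4.34 log2 for CFA (3.73 with genes at the floor at their bounds) and 5.23 for 10U (4.48 with bounds). Their median interaction was -0.443, and 4 of 6 had both unadjusted p under 0.05.

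Promoter windows are shown for 2 of these chemokines, the 10U-called Cxcl2 and Ccl12, and for the signalling gene Socs3 and the fibre gene Ankrd1 described below, because they are genes high in both responses that differ in class. Each holds the 250 bases before the RefSeq start of the gene in build GRCm38.p6, 5′ to 3′ in the sense of the gene. They are at chr5:90903649-90903898 (plus strand), chr11:82101595-82101844 (plus), chr11:117969367-117969616 (minus) and chr19:36119845-36120094 (minus), in the order below. Capitals mark letters that matched a searched motif on either strand: the NF-kB motif, which matched in Cxcl2 on each strand at overlapping positions, 97 to 87 bases before the start, and the STAT motif TTCNNNGAA, which matched in Socs3 154 to 146 bases before the start.
Cxcl2: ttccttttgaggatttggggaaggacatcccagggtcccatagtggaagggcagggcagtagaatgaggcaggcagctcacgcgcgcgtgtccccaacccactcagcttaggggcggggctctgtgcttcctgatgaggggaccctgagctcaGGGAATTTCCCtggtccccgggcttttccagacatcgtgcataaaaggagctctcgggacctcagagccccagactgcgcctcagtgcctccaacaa
Ccl12: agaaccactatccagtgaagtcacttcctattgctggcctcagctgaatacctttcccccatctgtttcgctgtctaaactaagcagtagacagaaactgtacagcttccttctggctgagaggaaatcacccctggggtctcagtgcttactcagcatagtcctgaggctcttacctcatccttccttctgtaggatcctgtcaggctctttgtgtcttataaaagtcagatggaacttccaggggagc
Socs3: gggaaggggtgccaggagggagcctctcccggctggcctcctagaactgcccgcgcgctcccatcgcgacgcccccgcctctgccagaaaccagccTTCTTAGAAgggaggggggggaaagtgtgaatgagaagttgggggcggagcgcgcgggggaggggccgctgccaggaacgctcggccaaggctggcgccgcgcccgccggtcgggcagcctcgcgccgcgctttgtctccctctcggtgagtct
Ankrd1: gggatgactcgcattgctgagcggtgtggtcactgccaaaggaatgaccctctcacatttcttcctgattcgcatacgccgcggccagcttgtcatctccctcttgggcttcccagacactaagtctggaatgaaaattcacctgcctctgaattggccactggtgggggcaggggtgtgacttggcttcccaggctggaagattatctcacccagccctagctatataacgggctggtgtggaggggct
Of 32851 windows of this length in the RefSeq table, 7.25% held the NF-kB motif, 7.02% the STAT motif and 6.75% the AP-1 motif TGANTCA, which none of these 4 windows held. A match is a description of letters and was not tested as a binding site.

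Several receptors of monocytes and macrophages were higher in both responses, though edgeR called none of their CFA effects. Clec4n (dectin-2), a C-type lectin that binds fungal and mycobacterial mannans, had the smallest larger p of all genes higher in both. It was at 7.89, 0.771 and 8.51 CPM in CFA mice against 0.122, 0.233 and 0.445 CPM, and at 12.9, 12.4, 25.2 and 3.46 CPM in 10U mice against 0.226, 0.261 and 0.136 CPM. Neither pair of groups overlapped. Its effects were 4.38 ± 0.92 log2 with CFA and 6.00 ± 0.99 with 10U, where it rose (edgeR adjusted p = 0.032). Fcgr1, the high-affinity receptor for immunoglobulin G, was at 21.6, 2.36 and 25.3 CPM with CFA against 0.487, 1.35 and 2.07 CPM, and at 13.5, 17.6, 26.7 and 5.11 CPM with 10U against 1.27, 0.98 and 1.99 CPM. Its folds were close, 12.5 for CFA and 11 for 10U (edgeR adjusted p = 0.0339 for 10U), with an interaction of 0.18 log2 and an interval of -2.14 to 2.51. Ms4a6d, a membrane protein of macrophages, was higher by 3.48 ± 0.77 log2 with CFA and rose by 4.20 ± 0.78 with 10U (edgeR adjusted p = 0.032).

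As groups, 7 of 32 monocyte and macrophage genes rose with 10U, and 10 had both unadjusted p under 0.05, against 5.67% and 2.12% of all genes, with medians of 1.17 log2 for CFA and 1.88 for 10U. Of 12 Toll-like receptors, which sense microbial and damage molecules, 3 rose with 10U (medians 1.11 and 1.70), among them Tlr1. It was at 4.57, 0.59 and 4.40 CPM in CFA mice against 0.244, 0.419 and 0.593 CPM, so CFA mouse 2 lay within its vehicle range. In 10U mice Tlr1 was at 6.42, 5.46, 7.23 and 1.17 CPM against 0.407, 0.457 and 0.724 CPM. Of 11 C-type lectins 4 rose (medians 1.65 and 1.60), and 4 of the 12 receptors and 5 of the 11 lectins had both unadjusted p under 0.05. The scavenger receptor Msr1 was at 18.5, 1.86 and 17.6 CPM with CFA against 0.366, 1.21 and 2.11 CPM, and at 25.7, 24.8, 45.6 and 7.37 CPM with 10U against 0.950, 0.0653 and 2.17 CPM. It rose with 10U by 4.56 ± 1.06 log2 (edgeR adjusted p = 0.0336). Of 11 genes of the interleukin-1 family 10 had a 10U effect above 0 but none was called. Both unadjusted p were under 0.05 in 4 of them (medians 0.87 and 0.887). Of 16 genes typical of neutrophils themselves none rose, with medians of 0.147 for CFA and -1.27 for 10U and 12 interactions above 0 (median 1.57). These medians rest on single vehicle mice. Without Contr 3 the 10U median was 0.611 and the interaction -0.302, without CFA_control 3 the CFA median was 5.34 and the interaction 7.02, and the CFA median was below 0 in 4 alternatives (lowest -1.02). Their mean log2 CPM was 4.55, 3.13 and 5.29 in CFA_control 3, Contr 1 and Contr 3 and below 0 in the other 3 vehicle mice. Bone markers (4.88, 4.42 and 4.80) and red cell markers (4.92, 4.23 and 5.46) were high in the same 3 mice and below 1 in the other 3, and their part in the neutrophil values was not tested.

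Some acute-phase and cytokine-feedback genes were higher in both, none by the edgeR test for a common effect. Socs3, which STAT3 induces and which blocks gp130 cytokine receptors, was at 137, 13.1 and 157 CPM in CFA mice against 8.53, 6.15 and 6.85 CPM. With 10U it was at 102, 148, 145 and 9.70 CPM against 7.15, 7.71 and 11.5 CPM, so 10U mouse 4 lay inside the vehicle range. The folds were 14.2 and 11.5, and Socs3 rose with 10U (edgeR adjusted p = 0.0369). Saa3, an acute-phase protein of macrophages and fat, was at 155, 0.499 and 28.1 CPM in CFA mice against 0.122, 0.0931 and 0.037 CPM. In the 10U mice it was at 4.79, 6.61, 8.52 and 0.639 CPM and at 0 counts in their vehicle mice, at least 33.0-fold higher against a floor of 3 counts per library (edgeR adjusted p = 0.0479). All injected mice lay above their vehicle mice. Of 12 genes of the IL6 and STAT3 pathway 3 rose with 10U (medians 0.656 and 1.34), of 18 in the TNF and NF-kB list 3 rose (0.873 and 1.07), and of 10 acute-phase genes 2 rose (1.73 and 0.821), against 5.67% of all genes. Both unadjusted p were under 0.05 in 4, 7 and 3 members of these lists, and 4 acute-phase genes had a 10U effect below 0.

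**Figure D3:**
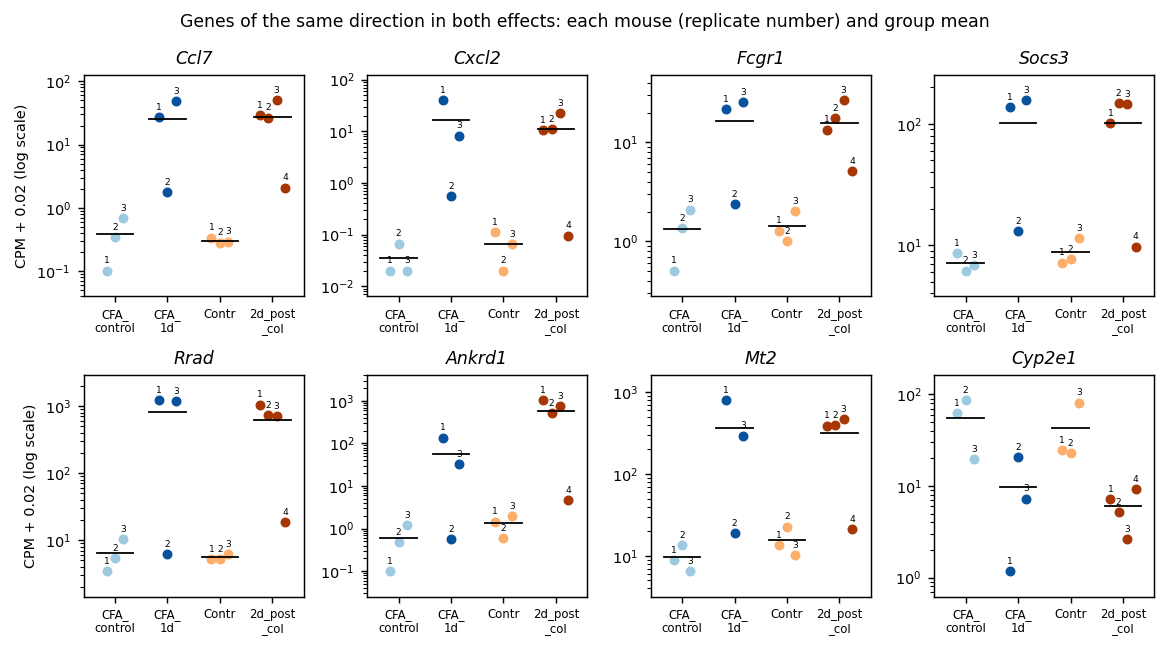
CPM plus 0.02 on a log axis for 8 genes with the same direction in both effects, with 1 point per mouse marked by its replicate number and a line at each group mean. In the 7 immune and stress genes, CFA mouse 2 and 10U mouse 4 are the lowest points of the injected groups.

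The interferon-stimulated genes had a higher median effect with CFA than with 10U, which was smaller without 1 CFA mouse. Of 30 tested, 29 had an interaction above 0 and 3 of them an unadjusted p under 0.05 (3% of all genes), with a median of 0.879 log2. The median CFA effect was 1.03, with 15 members at an unadjusted p under 0.05 (3.69% of all genes), and the median 10U effect was 0.326, with 1 member called, Oas2. Without CFA mouse 3 the median interaction went to 0.216 and the median CFA effect to 0.317. Isg15, a ubiquitin-like antiviral protein, was at 9.45, 5.85 and 38.2 CPM in CFA mice against 3.86, 4.70 and 3.63 CPM, and at 5.84, 6.28, 4.48 and 7.22 CPM in 10U mice against 4.39, 9.14 and 3.98 CPM. The CFA groups did not overlap and the 10U groups did, and CFA mouse 3 was by far the highest. Its interaction was 2.10 ± 0.78 log2 (edgeR adjusted p = 0.778). Ifit3, which binds viral RNA complexes, was at 7.73, 6.58 and 33.8 CPM in CFA mice, with an interaction of 1.71 ± 0.73. The member called with 10U, Oas2, a sensor of double-stranded RNA, was at 9.37, 6.63 and 19.7 CPM with CFA and 13.3, 11.4, 12.0 and 8.72 CPM with 10U, and no mouse of either injected group overlapped its vehicle mice.

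Among innate genes, Lbp, C1ra and Gbp2 had CFA and 10U effects of opposite sign, and Retnla had both effects below 0. Lbp, which binds bacterial lipopolysaccharide, was at 84.9, 21.2 and 21.8 CPM in CFA mice against 10.8, 18.0 and 16 CPM, and at 8.47, 18.6, 17.3 and 17.3 CPM in 10U mice against 22.5, 18.6 and 20.7 CPM. Its interaction was 1.93 ± 0.66 log2 (edgeR adjusted p = 0.739), and CFA mouse 1 stood far above the other mice. C1ra, a protease of the classical complement pathway, was at 47.2, 24.9 and 20.6 CPM with CFA against 12.5, 20.5 and 20.1 CPM, and at 11.4, 12.8, 20.3 and 16.9 CPM with 10U against 22.7, 13.7 and 22.8 CPM, with an interaction of 1.17 ± 0.47. Gbp2, an interferon-induced GTPase, had effects of 0.50 and -0.69, neither called, and the Gbp2 CFA effect was -0.0300 without CFA mouse 3. Of 17 complement genes 4 rose with 10U, against 5.67% of all genes (medians 0.453 and -0.0742). Retnla, a marker of alternatively activated macrophages, was at 7.01, 19.8 and 12.9 CPM in CFA mice against 14.9, 37.0 and 24.7 CPM. In the 10U mice it was at 0.0526, 0.219, 0.133 and 10.6 CPM against 36.4, 26.5 and 26.3 CPM, so 10U mice 1 to 3 lay far below every other mouse. Its interaction of 2.45 ± 1.65 was not called, and was 6.79 with edgeR adjusted p = 0.00703 without 10U mouse 4 and 6.74 with adjusted p = 0.0104 with the replicate block.

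The respiratory chain, citric acid cycle and fatty acid oxidation lists had medians below 0 in both responses and lower ones with 10U, with no interaction called. All 36 tested genes of respiratory complex I had both effects below 0, with medians of -0.467 log2 for CFA and -1.16 for 10U, 19 fell with 10U (6.39% of all genes did), and 35 had an interaction above 0 (median 0.722). Of 41 genes of complexes II to V 20 fell, with medians of -0.509 and -1.09, and 37 had an interaction above 0. All 19 genes of the tricarboxylic acid cycle had both effects below 0 (medians -0.405 and -1.11), 13 fell with 10U, and 19 had an interaction above 0 (median 0.675), 1 of them at an unadjusted p under 0.05. Of 26 genes of fatty acid oxidation 6 fell (medians -0.555 and -0.91). No CFA effect in these lists was called by edgeR. The median interactions of these lists, and of glycolysis, calcium handling and sarcomere genes below, kept their sign under every alternative run, and the summed level of skeletal muscle markers given above moved the same way.

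Ndufa9, a subunit of complex I, was at 202, 278 and 256 CPM in CFA mice against 340, 412 and 251 CPM, and at 64.0, 81.0, 73.3 and 188 CPM in 10U mice against 384, 325 and 191 CPM. The CFA groups overlapped, and every 10U mouse lay below its vehicle mice. It fell with 10U by 1.56 log2 (SE 0.37, edgeR adjusted p = 0.034). Pdha1, a subunit of the pyruvate dehydrogenase that feeds the cycle, was at 516, 806 and 685 CPM against 852, 753 and 773 CPM for CFA and at 258, 294, 259 and 491 CPM against 943, 743 and 722 CPM for 10U. It fell 2.47-fold with 10U (edgeR adjusted p = 0.032), and its interaction was 1.06 ± 0.39. Its exons overlap Map3k15 on the opposite strand over 603 of 3774 bases. Mdh2, the mitochondrial malate dehydrogenase, fell 2.91-fold with 10U (edgeR adjusted p = 0.0331), against a 1.46-fold lower mean with CFA that was not called.

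Glycolysis was divided. Of 29 genes, 12 fell and 3 rose with 10U, against 6.39% and 5.67% of all genes (medians -0.443 and -1.08). The interaction was above 0 in 17. At an unadjusted p under 0.05 it was higher in 7 and lower in 2, against 3% and 3.14% of all genes. Pygm, the muscle glycogen phosphorylase that frees glucose from glycogen, was at 5003, 6734 and 3681 CPM in CFA mice against 9807, 9269 and 4096 CPM. In the 10U mice it was at 549, 973, 1019 and 2358 CPM against 6490, 6242 and 5325 CPM. Each 10U mouse was below the lowest of its vehicle mice, and CFA values overlapped. Pygm fell 4.91-fold with 10U (edgeR adjusted p = 0.032), with an interaction of 1.71 ± 0.69. Pgam2, the muscle phosphoglycerate mutase, was at 1009, 1622 and 1298 CPM with CFA against 2014, 2818 and 1297 CPM, and at 276, 435, 452 and 722 CPM with 10U against 2053, 2384 and 1592 CPM. It fell 4.26-fold with 10U (edgeR adjusted p = 0.032), and its interaction was 1.45 ± 0.52 (edgeR adjusted p = 0.778). Genes of fatty acid synthesis had medians of -0.53 and -0.602 over 19 members, 2 of which fell, and 18 lipolysis genes had medians of -0.576 and -0.683 with none called and 5 interactions above 0 (median -0.17). Brown fat genes, 10 members, had medians of -0.47 and 0.258, and the latter turned sign in 5 alternatives.

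**Figure D4:**
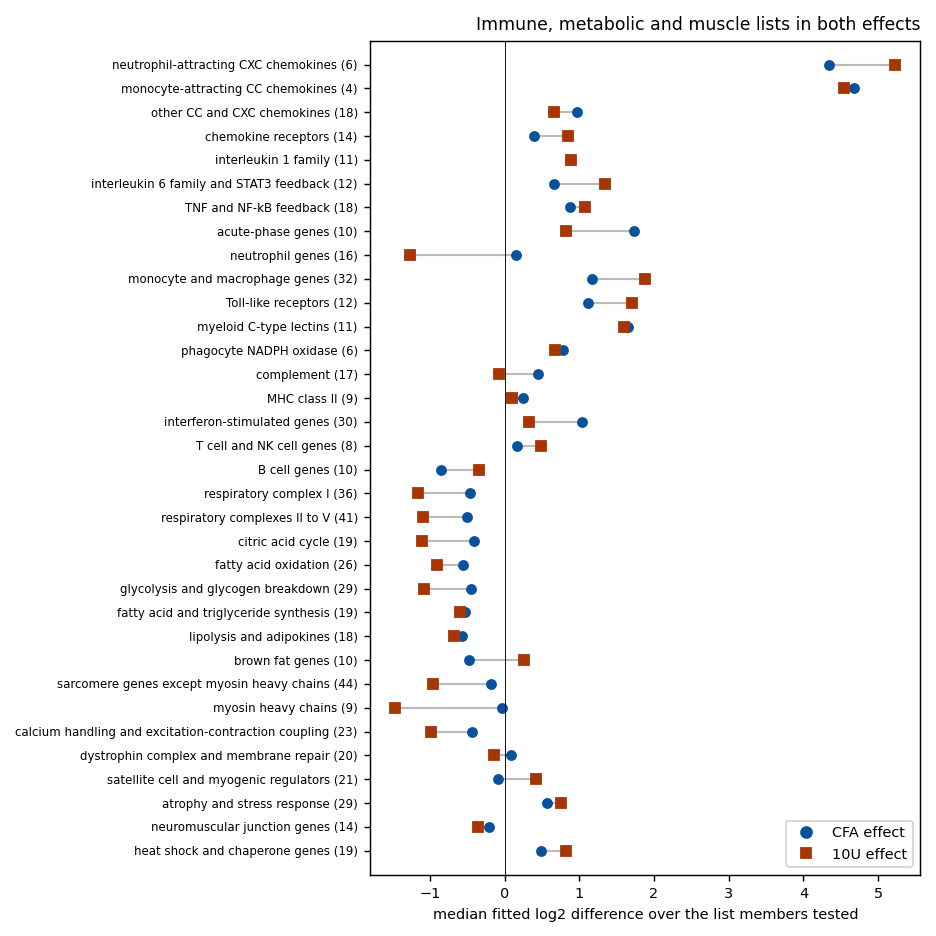
Median fitted log2 difference of each immune, metabolic and muscle list, with the number of genes tested beside its name, a circle for the CFA effect and a square for the 10U effect. The 2 attractant chemokine lists are high in both, and respiratory chain, glycolysis and sarcomere lists are lower with 10U than with CFA.

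The contractile lists had lower medians with 10U than with CFA, with no interaction called. Of 44 sarcomere genes other than myosin heavy chains, 19 fell and 3 rose with 10U, against 6.39% and 5.67% of all genes. Their medians were -0.181 log2 for CFA and -0.954 for 10U. An interaction above 0 was found in 34, 13 of them at an unadjusted p under 0.05 (3% of all genes). All 9 myosin heavy chain genes had an interaction above 0 (median 1.27), with medians of -0.0319 for CFA and -1.46 for 10U, and 1 fell. That gene was Myh4, the fast IIb myosin, which fell 4.78-fold with 10U (edgeR adjusted p = 0.032), against a 1.53-fold lower mean with CFA that was not called.

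Mybpc2, fast myosin-binding protein C, was at 7388, 6402 and 4050 CPM in CFA mice against 9687, 7799 and 3829 CPM, and at 1190, 1491, 1919 and 1816 CPM in 10U mice against 6702, 6574 and 5084 CPM. It fell with 10U by 1.93 log2 (SE 0.36, edgeR adjusted p = 0.032), and its interaction was 1.68 ± 0.52 (adjusted p = 0.679). Myh3, the embryonic myosin, differed between the vehicle groups, at 4.39, 3.40 and 3.11 CPM for CFA and 17.9, 23.6 and 18.5 CPM for collagenase. CFA mice were at 17.8, 3.04 and 3.38 CPM and 10U mice at 5.84, 7.65, 7.10 and 2.82 CPM, so its interaction of 2.93 ± 0.81 (edgeR adjusted p = 0.607) rests on a vehicle difference of -2.46 log2 (CFA vehicle minus collagenase vehicle), and its CFA effect was -0.54 against the pooled vehicle mice. Tmod1, which caps the pointed ends of actin filaments, had the smallest interaction p of the contractile genes described here. It was at 415, 717 and 442 CPM with CFA against 789, 711 and 510 CPM, and at 102, 116, 123 and 201 CPM with 10U against 642, 631 and 547 CPM. It fell 4.48-fold with 10U (edgeR adjusted p = 0.0162), and its interaction was 1.81 ± 0.42 (adjusted p = 0.494). Exons of Tmod1 overlap Tstd2 on the opposite strand over 1287 of 3946 bases, and 10 of the 11 libraries of 10U on all days lay below the 20 others.

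Calcium handling and membrane genes showed the same order. Of 23 calcium handling genes 11 fell and 1 rose with 10U, against 6.39% and 5.67% of all genes (medians -0.435 and -0.985). Pvalb, the calcium buffer of fast fibres, fell 5.42-fold with 10U (edgeR adjusted p = 0.032) and was 1.58-fold lower with CFA, not called.

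Scn4a, the sodium channel of the muscle action potential, was at 1079, 811 and 630 CPM in CFA mice against 1009, 998 and 541 CPM, and at 185, 198, 213 and 348 CPM in 10U mice against 853, 600 and 519 CPM. The CFA effect was -0.02 ± 0.35 log2, and Scn4a fell with 10U by 1.48 (SE 0.32, edgeR adjusted p = 0.0322). Cav3, the muscle caveolin, was at 186, 172 and 200 CPM with CFA against 174, 207 and 95.1 CPM, and at 46.5, 39.2, 46.4 and 73.2 CPM with 10U against 155, 155 and 68.3 CPM. It fell with 10U by 1.29 (SE 0.33, edgeR adjusted p = 0.0369), although 10U mouse 4 lay within the vehicle range, and its interaction was 1.52 ± 0.48. Ryr1, the calcium release channel of the sarcoplasmic reticulum, had effects of -0.09 ± 0.37 with CFA and -1.29 ± 0.34 with 10U (edgeR adjusted p = 0.0389), and its exons overlap Gm16799 on the opposite strand over 299 of 15362 bases. Of 20 genes of the dystrophin complex 6 fell and 2 rose with 10U, against 6.39% and 5.67% of all genes (medians 0.0883 and -0.14).

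The regulator myogenin rose with 10U, and its levels with CFA lay among those of vehicle mice. Myog was at 4.97, 7.67 and 8.70 CPM in CFA mice against 10.9, 5.87 and 7.11 CPM in vehicle mice, and at 94.0, 69.5, 103 and 15.2 CPM in 10U mice against 8.01, 8.16 and 3.35 CPM. CFA and vehicle mice overlapped, and every 10U mouse lay above every vehicle mouse. Myog rose 10.8-fold with 10U (edgeR adjusted p = 0.032), its CFA effect was -0.16 ± 0.56 log2, and the interaction was -3.60 ± 0.80 with a 95% interval of -5.33 to -1.86. This interaction was not called by edgeR (adjusted p = 0.494), was called by DESeq2 (adjusted p = 0.00369), and was -3.94 with edgeR adjusted p = 0.0204 without 10U mouse 4. In all, 9 of the 11 libraries of 10U on all days lay above the 20 others, and no opposite-strand overlap was found. Chrng, the embryonic subunit of the acetylcholine receptor, was at 0.361, 0.0908 and 0.324 CPM with CFA against 0.122, 0.0931 and 0.148 CPM, and at 2.79, 2.79, 2.66 and 0.789 CPM with 10U against 0.272, 0.196 and 0.0905 CPM. It rose 11.8-fold with 10U (edgeR adjusted p = 0.032), with an interaction of -2.51 ± 0.95. Of 14 genes of the neuromuscular junction 5 rose and 3 fell with 10U, against 5.67% and 6.39% of all genes. Of 21 satellite cell genes 3 rose and 2 fell (medians -0.0833 for CFA and 0.424 for 10U).

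**Figure D5:**
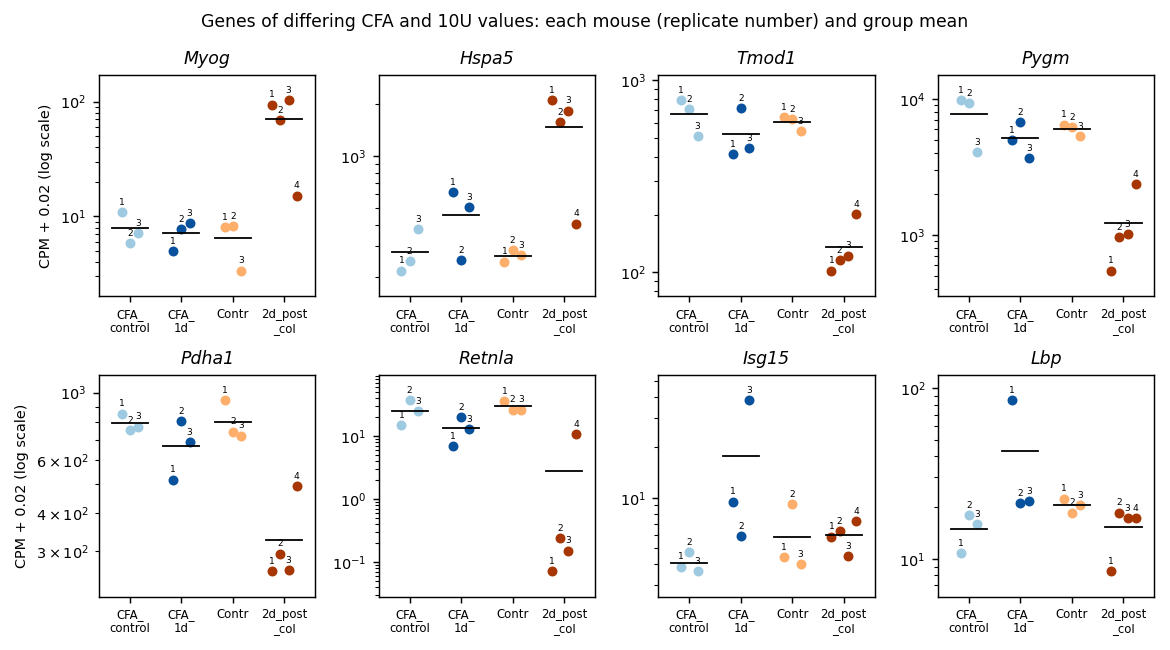
CPM plus 0.02 on a log axis for 8 genes whose CFA and 10U values differ, with 1 point per mouse marked by its replicate number and a line at each group mean. Myog is highest in the 4 10U mice, Tmod1, Pygm and Pdha1 are lowest there, and single CFA mice carry the high values of Isg15 and Lbp.

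Among the muscle lists, members with both effects above 0 at an unadjusted p under 0.05 were found mainly in the atrophy and stress list (8 of 29) and the sarcomere list (5 of 44), against 2.12% of all genes. Of the atrophy and stress genes 10 rose with 10U, against 5.67% of all genes (medians 0.57 for CFA and 0.749 for 10U), and the CFA median was 0.0163 without CFA mouse 1. Ankrd1, a stretch-responsive protein of the sarcomere, was at 137, 0.545 and 32.5 CPM in CFA mice against 0.0812, 0.466 and 1.19 CPM. In 10U mice it was at 1027, 513, 770 and 4.74 CPM against 1.45, 0.588 and 1.95 CPM. CFA mouse 2 lay within its vehicle range and 10U mouse 4 above its own. Ankrd1 was 95.7-fold higher with CFA and rose 427-fold with 10U (edgeR adjusted p = 0.0336), with an interaction of -2.16 and an interval of -7.00 to 2.68. Its relative Ankrd2 was at 770, 37.3 and 168 CPM with CFA against 14.9, 24.4 and 13.9 CPM, and at 374, 238, 332 and 20.8 CPM with 10U against 16.2, 8.16 and 12.8 CPM. Neither comparison overlapped, and the folds were 18.4 and 19.4 (edgeR adjusted p = 0.0359 for 10U). Rrad, a small GTPase that inhibits calcium channels, was at 1213, 6.17 and 1198 CPM with CFA against 3.45, 5.40 and 10.5 CPM, and at 1054, 723, 713 and 18.8 CPM with 10U against 5.25, 5.16 and 6.20 CPM. Its folds were 125 and 113 (edgeR adjusted p = 0.0342 for 10U). Mt2, a metal-binding metallothionein, was at 797, 19.0 and 295 CPM with CFA against 8.81, 13.5 and 6.52 CPM, and at 393, 396, 468 and 21.4 CPM with 10U against 13.6, 22.7 and 10.1 CPM, with folds of 38.6 and 20.7 (edgeR adjusted p = 0.0389 for 10U).

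Hspa5 (BiP), a chaperone of the endoplasmic reticulum from the heat shock list, was at 616, 249 and 506 CPM in CFA mice against 216, 245 and 375 CPM, and at 2108, 1575, 1830 and 405 CPM in 10U mice against 245, 284 and 265 CPM. Each 10U mouse lay above its vehicle mice, while CFA mice overlapped theirs. Hspa5 rose with 10U by 2.48 ± 0.51 log2 (edgeR adjusted p = 0.032), and its interaction was -1.77 ± 0.70. Trib3, a pseudokinase of the atrophy and stress list, was at 14.2, 3.81 and 2.45 CPM with CFA against 4.39, 5.73 and 2.52 CPM, and at 43.4, 23.1, 28.6 and 2.93 CPM with 10U against 2.17, 2.81 and 1.45 CPM. It rose 11.5-fold with 10U (edgeR adjusted p = 0.0343), with an interaction of -2.82 ± 1.12. Of 19 heat shock genes 6 rose and 1 fell with 10U, against 5.67% and 6.39% of all genes (medians 0.482 and 0.818).

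Of the genes lower in both responses, Bpgm, an enzyme that regulates oxygen release from haemoglobin, was at 30.8, 71.2 and 53.7 CPM in CFA mice against 94.9, 92.5 and 75.5 CPM, and at 24.8, 29.1, 32.8 and 35.9 CPM in 10U mice against 76.0, 84.5 and 109 CPM. Neither comparison overlapped. It was 1.69-fold lower with CFA and fell 2.92-fold with 10U (edgeR adjusted p = 0.032), with an interaction of 0.79 and an interval of -0.01 to 1.60.

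Cyp2e1, a cytochrome P450 of liver and fat, was at 1.16, 20.5 and 7.26 CPM in CFA mice against 62.2, 85.9 and 19.5 CPM, and at 7.15, 5.14, 2.62 and 9.29 CPM in 10U mice against 24.6, 23.0 and 81.2 CPM. CFA mouse 2 reached its vehicle range and no 10U mouse did. It was 5.8-fold lower with CFA and fell 7.09-fold with 10U (edgeR adjusted p = 0.0441). White fat markers, 8 genes, had medians of -1.84 for CFA and -1.27 for 10U, and their part in this was not tested. Sema3b, a secreted guidance protein, was at 15.9, 21.7 and 19.8 CPM with CFA against 30.1, 35.4 and 26.5 CPM, and fell with 10U by 1.17 (SE 0.21, edgeR adjusted p = 0.032). Prx, the periaxin of myelinating Schwann cells, was at 50.7, 36.1 and 38 CPM with CFA against 94.1, 101 and 59.9 CPM, and at 29.1, 34.2, 22.9 and 44.4 CPM with 10U against 61.8, 141 and 55.4 CPM. It fell with 10U by 1.40 (SE 0.34, edgeR adjusted p = 0.0342), and its exons overlap Gm15541 on the opposite strand over 300 of 5579 bases. Of 11 peripheral nerve genes 2 fell with 10U, against 6.39% of all genes (medians -0.679 and -0.755).

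Among the genes of smallest interaction p, several belong to tissues whose markers differed between the vehicle groups. Scn10a, a sodium channel of pain-sensing neurons, was at 0.240, 0.136 and 0.0925 CPM in CFA mice against 0.853, 0.373 and 0.519 CPM. It was at 0.947, 4.92, 0.843 and 1.54 CPM in 10U mice and at 0 counts in all collagenase vehicle mice, at least 13.2-fold higher against a floor of 3 counts per library. Pirt, a regulator of sensory channels, was at 0.631, 4.43, 0.666 and 0.865 CPM in 10U mice and also at 0 counts in their vehicle mice, at least 10.6-fold higher. Nefh, the heavy neurofilament of large axons, was at 0.226, 0.914 and 0.633 CPM in the collagenase vehicle mice and between 3.01 and 15.4 CPM in every other mouse. Among the 13 libraries, the collagenase vehicle mice were thus the ones that stood apart in these neuronal genes. Libraries of 0.2U collagenase, outside this comparison, were near them. Their sensory neuron markers summed to 5.45 to 11.2 CPM in group C_1C and to 3.16 to 6.22 CPM in group C_RPC. Of 10 sensory neuron markers 8 rose with 10U, against 5.67% of all genes. In 9 the CFA effect was more negative than the 10U effect at an unadjusted p under 0.05, against 3.14% of all genes. The list was chosen after these values were seen.

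Ptgds, a prostaglandin D synthase of meninges and eye, was at 7.33, 27.2 and 31.5 CPM in the collagenase vehicle mice and between 0.355 and 4.35 CPM in every other mouse, with an interaction of 4.46 ± 0.84 log2 (edgeR adjusted p = 0.494). Chgb, a protein of secretory granules, was at 5.52, 14 and 23.8 CPM in the collagenase vehicle mice and between 0.105 and 1.63 CPM elsewhere, with an interaction of 4.75 ± 0.95. Both fell with 10U (edgeR adjusted p = 0.0162), and the vehicle groups differed by -2.88 and -3.65 log2 (CFA vehicle minus collagenase vehicle). The epidermal genes Dmkn and Hrnr also differed between vehicle groups, and among CFA mice both were highest in mouse 3. Dmkn was at 0.841, 0.227 and 10.5 CPM in CFA mice and at 0.0406, 0.0466 and 0.148 CPM in their vehicle mice. In the collagenase vehicle mice Dmkn was at 4.62, 11.2 and 6.06 CPM. The mean log2 CPM of the 14 tested epidermal markers was -0.118, -0.3 and 2.67 in CFA mice. Hrnr had 2, 3 and 17 counts in CFA mice and 0, 1 and 0 in the CFA vehicle mice. It had 137, 223 and 196 counts in the collagenase vehicle mice. It was 1 of the 2 genes called between vehicle groups, with Krt2, and the direction of its interaction turned when the injected groups were compared directly, at -2.81 log2.

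Cebpb, a transcription factor of the acute-phase response, was at 50.6, 31.1 and 33.6 CPM in CFA mice against 35.1, 34.0 and 14 CPM, and at 170, 247, 307 and 176 CPM in 10U mice against 26.3, 37.6 and 16.2 CPM. It rose 8.44-fold with 10U (edgeR adjusted p = 0.0162), and its interaction was -2.60 ± 0.55. Its exons overlap Tmem189 on the opposite strand over 312 of 1504 bases, and 8 of the 11 libraries of 10U on all days lay above the 20 others. Ppib, a cyclophilin that folds collagen, was at 107, 59.9 and 81.6 CPM with CFA against 49.4, 74.3 and 81.8 CPM, and at 32.9, 33.9, 29.8 and 20.5 CPM with 10U against 79.5, 112 and 79.2 CPM. Its exons overlap Snx22 over 520 of 960 bases, and 10 of 11 libraries of 10U lay below the 20 others.

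Of the other gene groups, the proliferation genes and mediators of pain had the medians farthest from 0 in the interaction. With 10U, 5.67% of all genes were called higher and 6.39% lower. Of 22 collagens 1 fell, no more than that share (medians 0.207 log2 for CFA and 0.0766 for 10U). Of 29 matrix proteases and inhibitors 4 rose and 1 fell with 10U (0.628 and 0.971). Of 24 immediate early genes 7 rose and 1 fell (0.316 and 0.651), and of 16 circadian genes 6 fell (-0.167 and -0.486). All 18 proliferation genes had an interaction below 0 (median -1.43), with medians of -0.0708 for CFA and 1.44 for 10U and none called with 10U, and the median interaction was 1.25 without CFA vehicle mouse 3. The CFA median of the proliferation genes also turned sign in 5 alternatives (range -0.938 to 2.86). Of 15 mediators of pain 2 rose with 10U (medians -0.212 and 0.808), with a median interaction of -0.894 that kept its sign in the alternatives run (range -0.911 to -0.236). Of 9 MHC class II genes none was called (0.242 and 0.103), and B cell genes, 10 members, had medians of -0.853 and -0.346, which reached 3.59 and 1.22 when 1 vehicle mouse was left out (CFA_control 3 and Contr 3). In proliferation and B cell genes, CFA_control 3, Contr 1 and Contr 3 again had the highest mean log2 CPM of the vehicle mice, at 3.13, 1.89 and 3.22 for proliferation and 1.68, -0.65 and 1.28 for B cell genes, as they did for bone and red cell markers.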

How the data were processed

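RNA from mouse masseter muscle was made into stranded, oligo-dT selected libraries and sequenced as single-end reads. Per the submitters' processing notes and the study's methods, the authors used bcl2fastq, TopHat2 with the mm9 build and HTSeq, whose versions, annotation and strand setting are not given in the sources used here. The deposited values are raw counts per gene, with rows of unassigned reads that were left out of library sizes. From these counts, 1 edgeR 4.0.16 quasi-likelihood fit (R 4.3.3, TMM scaling, 4 groups) was made over 13 libraries, on genes that reached 10 counts in 3 libraries or more, after removing 149 genes that were one-sided in the 10U libraries. This left 14659 of 14794 genes. Called means an adjusted p under 0.05 (Benjamini-Hochberg over all genes tested). Rose and fell mean called higher and called lower by edgeR. SE is the log2 difference divided by the root of F, and intervals are at 95%. CPM are shown per library.

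Genes were named by rule: the 8 of smallest interaction p in each direction (0 were called) with a mean of at least 1 CPM in at least 1 group, the 8 of smallest larger p in each direction common to both effects, 3 per list by either measure, and the genes the study names for both agents. Some genes under this rule are not reported here. Members and lists were chosen with earlier results of these data known, and sensory neuron and retina lists were added after values were seen. The scripts were tested on simulated data. Alternatives were DESeq2 1.42.0, other scaling, filters, references, fits and each library left out, and, chosen after seeing the data, leaving out all genes with opposite-strand overlap. Nothing says that same-numbered libraries share a mouse, litter or day. Deviations of same-numbered CFA libraries from their group means had r of 0.119, 0.264 and 0.482 (mean 0.288). For the collagenase ones r was -0.225, 0.122 and 0.0939 (mean -0.00303). Values for differently numbered libraries are not given here, so these r do not settle whether same-numbered libraries are paired. Of 78 pairs of libraries none was identical. Mice are separate samples in the labels. P-values, SE and intervals rest on the spread between them as the fit estimates it, and floors of 3 counts cover counting error only. Promoters are from RefSeq (GRCm38.p6), other positions are mm9. Figures were drawn with matplotlib 3.10.9.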

Additional observations from a re-analysis of the deposited data

Results flagged for a closer look

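Within the 4 10U mice, 16 of 121 values tested (13.2%; 11 genes and 5 lists) had 1 mouse whose gap to the nearest other mouse, as a share of the whole range, exceeded Dixon's critical value of 0.829. Chance gives about 1 in 20 for independent, normally spread values. The values here come from the same 4 mice and are not independent, so the 16 cannot be set against that rate. Mouse 4 was the lowest in 9 of the 16 and the highest in 3. The shares with mouse 4 apart were 0.903 for Rrad, 0.847 for Cxcl2, 0.865 for Socs3, 0.843 for Tlr1, 0.87 for Ankrd1, 0.844 for Ankrd2, 0.943 for Mt2 and 0.963 for Chrng, all with mouse 4 low, and 0.896 for Ryr1 with mouse 4 high. For the mean level of whole lists, mouse 4 was apart by 0.862 in respiratory complex I, 0.877 in calcium handling and 0.874 in atrophy and stress genes. The others were Pirt with mouse 2 high (0.847), Lbp with mouse 1 low (0.903), B cell genes with mouse 3 (0.834) and salivary gland markers with mouse 3 low (0.923). What sets mouse 4 apart was not tested.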

How the results depend on the processing

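Calls are given as higher and lower. For the interaction (0 and 0), calls were 17 and 22 with DESeq2, 6 and 8 with one-sided genes kept, 3 and 6 in 1 fit of 31 libraries, 81 and 35 with injected groups compared directly, 1 and 2 with the replicate block, and 0 to 7 each when 1 library was left out, 7 and 7 without 10U mouse 4 and 0 otherwise. With one-sided genes kept, all but Scn10a of the 14 called genes were one-sided. For CFA (0 and 0), DESeq2 called 55 higher. For 10U (831 and 936), calls were 1701 and 1750 with DESeq2, 2294 and 2470 in 1 fit of 31 libraries, 2566 and 2635 with pooled vehicle mice, 2529 and 2567 with the replicate block, and 0 and 0 in its own libraries alone. With 1 library left out they ran from 0 to 2254 and 0 to 2482. They were 362 and 407 without CFA_1d 3, 462 and 499 without CFA_control 1, and 529 and 594 without CFA_control 2. For genes common to both (0 and 0), DESeq2 called 16 higher. Between vehicle groups (0 and 2), calls were 13 and 37 with DESeq2, 15 and 42 in 1 fit of 31 libraries, and 0 to 2 and 1 to 24 with 1 library left out, the most without CFA_1d 3. Direction turned for the Hrnr interaction with injected groups compared directly (-2.81 log2), and for small CFA effects: Myh3 with pooled vehicle mice (-0.54), and, with 1 library left out, the Ptgds CFA effect (-0.59 to 0.021, highest without CFA_control 1), the Mybpc2 CFA effect (-0.56 to 0.033, highest without CFA_control 1), the Gbp2 CFA effect (-0.0300 to 0.741, lowest without CFA_1d 3), the Cav3 CFA effect (-0.0327 to 0.468, lowest without CFA_control 3) and the Myh3 CFA effect (-0.18 to 1.55, lowest without CFA_1d 1). The cause was not tested. Of the other values for single genes, 3027 kept direction and side of the threshold, 343 lost their call and 97 gained one. Of the list medians 2570 moved by less than the spread between mice and 95 by more. Depth limits genes at 3 counts or fewer in every vehicle library, for which fitted differences depend on the prior count.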
